A study of Ovis aries with 6 samples.

Results

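The keratins of the epidermis between the wool follicles were described in whole skin from 2 sheep breeds, the Super Merino (abbreviated SM) and the Small Tail Han (abbreviated STH). A set of 8 keratins was looked for by symbol (KRT1, KRT2, KRT5, KRT10, KRT14, KRT77, KRT78 and KRT80), and 7 of the 8 were found among the 28394 genes of the count tables. KRT14 was not listed under its symbol. Its gene ID, 101118459, is carried by LOC101118459, which the RefSeq gene table names KRT14, and this gene was therefore added and is called KRT14 below. Skin RNA of 3 SM and 3 STH ewes of 9 months (per the labels, whereas the methods of the study give a younger age) was sequenced as 1 library per sheep. SM is a fine wool breed and STH a coarse wool breed, no treatment was applied to either, and both were kept on the same farm and feed. The skin was taken behind the shoulder blade and contained the follicles, glands and dermis as well as the epidermis. The labels name the SM animals 128, 30034 and 30126 and the STH animals XW3, XW5 and XW8, and values per animal are given in this order.

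Keratins form the intermediate filaments of epithelial cells, in which an acidic type I keratin always pairs with a basic type II keratin. Dividing basal cells of the epidermis make KRT5 (type II) and KRT14 (type I). As the cells leave the basal layer they switch to KRT1 (type II) and KRT10 (type I), and in the upper layers KRT2 joins them. KRT77, KRT78 and KRT80 are further type II keratins of differentiating or ductal epithelium. KRT5 and KRT14 are also made by the outer root sheath of the follicle and by the sebaceous gland, so that in whole skin they are not restricted to the epidermis.

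In Oar_v4.0 the 6 type II genes lie in the type II cluster of chromosome 3, all on the forward strand. KRT78 extends from 133254853 to 133262893, KRT77 from 133377284 to 133391475, KRT1 from 133400378 to 133406299 and KRT2 from 133429890 to 133437824. KRT5 extends from 133537756 to 133543980 and KRT80 from 133850145 to 133869539. The type I genes KRT10, from 40533235 to 40538366, and KRT14, from 41225311 to 41229594, are on the reverse strand of chromosome 11. The files give each gene as a whole and do not separate its exons, introns and UTRs.

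Total counts were between 28870583 and 44645091 per sheep in SM and between 29690658 and 41957554 in STH ewes. The lowest count of any of the 8 keratins in a sheep was 146, for KRT2, at which the counting error alone is 8.28% (1 SD), and the highest was 296914, for KRT5. All 8 keratins passed the filter of at least 10 counts in at least 3 sheep and were tested among 15320 genes. Markers of other cell types were summed in the same libraries. The summed CPM (counts scaled to a common library total) of 7 smooth muscle genes was 1206 to 1431 in SM and 1863 to 2356 in STH ewes, that of 8 sebocyte genes 1139 to 1690 in SM and 556 to 910 in STH, and that of 8 wool fibre keratins 3808 to 6965 in SM and 2484 to 4803 in STH. These 8 wool fibre keratins are those found by symbol, of 18 listed. At an unadjusted p under 0.05, 5 of the 7 smooth muscle genes were higher in STH ewes (10.8% of all genes were) and 6 of the 8 sebocyte genes in SM ewes (7.21% of all genes were). Of the 5 adipocyte genes, FABP4 had a mean of 40.0 CPM in SM and 144 in STH ewes without overlap. An order with all STH above all SM ewes was found for 13.3% of all genes tested. The other 3 adipocyte genes that were tested overlapped between the breeds. Ranges of the summed CPM of the fibroblast, endothelium, melanocyte and leukocyte lists overlapped between the breeds. At an unadjusted p under 0.05, 2 of the 5 endothelium genes tested were higher in SM ewes (7.21% of all genes were). The median log2 fold change of this list, SM over STH, was 0.40. By the same measure 1 of 5 leukocyte genes was higher in SM ewes, 1 of 7 fibroblast genes in each breed and 0 of 4 melanocyte genes in either. None of the listed markers found in the files was at 0 in all sheep, and the part of these differences in the results below was not tested. In whole skin, fewer cells of a type and less RNA per cell cannot be told apart.

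The keratins were first ordered by their level per exon length, using the deposited RPKM (reads scaled to exon length and to the size of the library). KRT5 was the highest, with 1700.4 ± 238 RPKM (SD, n = 3) in SM against 2139 ± 406 (SD, n = 3) in STH ewes, and it ranked between 11 and 55 among all genes of a sheep. KRT14 followed with 1342 ± 246 (SD, n = 3) and 1843 ± 336 (SD, n = 3). KRT5 was above KRT14 in 6 of 6 sheep, by a factor between 1.10 and 1.35, although the ranges of these genes over the sheep overlapped.

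The next level was that of the early suprabasal partners. KRT1 had 186 ± 32.9 RPKM (SD, n = 3) in SM against 411 ± 201 (SD, n = 3) in STH ewes, and KRT10 had 156 ± 18.7 (SD, n = 3) and 381 ± 145 (SD, n = 3). These were not separated from each other, since KRT1 was the higher in 4 of 6 sheep and its ratio to KRT10 lay between 0.955 and 1.25. KRT77 came after them in every sheep, with 75.5 ± 12.7 (SD, n = 3) and 124 ± 50.5 (SD, n = 3) RPKM. KRT80 was lower again, with 23.4 ± 2.37 (SD, n = 3) and 17.3 ± 2.48 (SD, n = 3). The lowest were KRT2, with 1.43 to 7.89 RPKM over the 6 sheep, and KRT78, with 1.77 to 3.11, and their order differed between sheep.

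Among these 8 keratins the basal pair held most of the RNA. Per exon length, the 6 suprabasal keratins made up 14.01%, 12.9% and 11.8% of the summed RPKM of the 8 in the SM ewes. In the STH ewes they made up 13.97%, 19.7% and 21.8%. XW3 lay with the SM ewes in this share and the other STH ewes lay above all SM ewes. The summed RPKM of the 6 type II keratins was 1.30 to 1.40 times that of KRT10 and KRT14 in SM and 1.14 to 1.28 times in STH ewes. Other keratins of both types are outside these sums. The 6 inner root sheath keratins alone summed to between 10712 and 17863 CPM per sheep, against 7272 to 13676 CPM for KRT5 and KRT14. CPM is not scaled to exon length, and these CPM sums therefore do not order the genes by level.

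**Figure D1:**
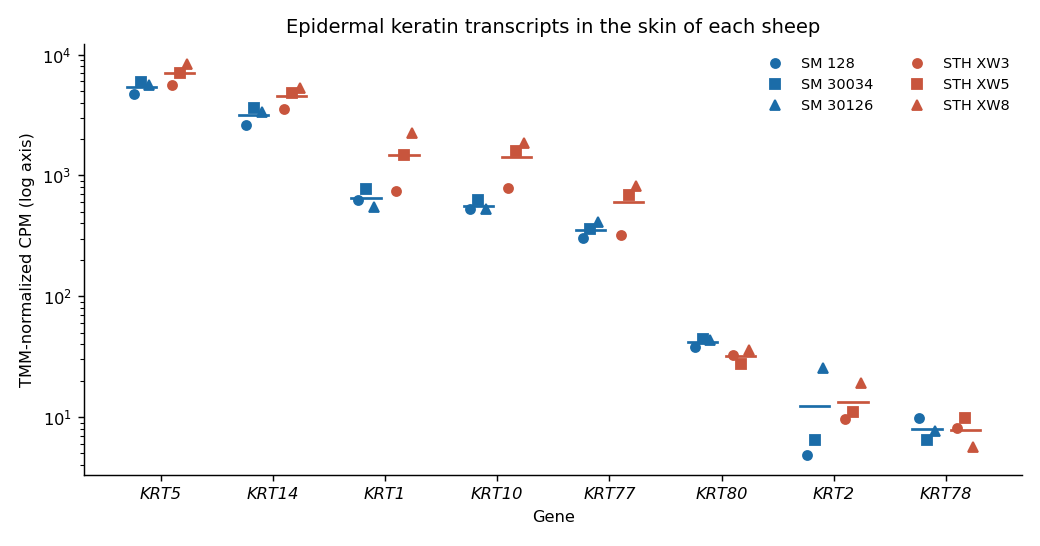
TMM-normalized CPM of the 8 keratins in each sheep, on a log axis, with SM ewes in blue, STH ewes in red and the breed mean as a bar. For KRT10 all 3 STH ewes, from 793 to 1863 CPM, lay above all SM ewes, from 523 to 627, and for KRT80 every SM ewe lay above every STH ewe.

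To ask which keratins differed between the breeds, counts were scaled by TMM (the trimmed mean of M values, which allows for differences in composition between libraries) and tested by edgeR's quasi-likelihood test over all 15320 genes, with the thresholds of the study, an adjusted p under 0.05 and a change of more than 1.5-fold. Log2 fold changes were taken as SM over STH, and a value below 0 therefore means more RNA in STH ewes. With this test 0% of all genes passed in either direction, and so none of the 8 keratins did. At an unadjusted p under 0.05, KRT1, KRT10, KRT14 and KRT77 were higher in STH ewes (4 of 8, where 10.8% of all genes were) and KRT80 was higher in SM ewes (1 of 8, where 7.21% of all genes were). With DESeq2, the edgeR likelihood ratio test and the edgeR exact test, KRT1 and KRT10 passed both thresholds as higher in STH ewes, where 1.87%, 1.43% and 1.31% of all genes did. None of the other 6 keratins passed in any of these 3 tests, in which 1.02%, 0.868% and 0.836% of all genes passed as higher in SM ewes. The log2 fold change was below 0 for 6 of the 8, and for 48.6% of all genes tested. The study, with the EdgeR algorithm and the same thresholds, called KRT1 and KRT10 as higher in STH ewes. Which edgeR test it used is not stated. Its calls come from these same libraries, so that the direction of KRT1 and KRT10 here is no independent evidence.

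The basal pair came first in level and had moderate differences. KRT5 had 4670.3, 5888 and 5571 CPM in the SM ewes, against 5557, 7034 and 8419 in the STH ewes. XW3 lay within the range of the SM ewes, and the breeds overlapped. The log2 fold change of KRT5 was -0.38 ± 0.19 (standard error, SE, adjusted p = 0.314), with a 95% interval from -0.82 to 0.06. Without XW8 it was -0.23. KRT14 had 2602, 3576 and 3368 CPM in the SM ewes, against 3522, 4806 and 5257 in the STH ewes. Here too XW3 lay within the SM range. For KRT14 the log2 fold change came to -0.51 ± 0.20 (SE, adjusted p = 0.262), with a 95% interval from -0.97 to -0.04. As each sheep was left out this value lay between -0.66 and -0.38.

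The partners KRT1 and KRT10, which replace the basal pair in the spinous layer, had the largest differences of the 8. KRT1 had 629, 764 and 552 CPM in the SM ewes, against 742, 1484 and 2228 in the STH ewes. XW5 and XW8 were above all SM ewes, whereas XW3 was below SM ewe 30034. The means were 648 ± 107 (SD, n = 3) in SM against 1485 ± 743 (SD, n = 3) in STH ewes, a 2.29-fold difference. The log2 fold change of KRT1 was -1.20 ± 0.35 (SE, adjusted p = 0.247), with a 95% interval from -1.99 to -0.40. It was -0.78 without XW8 and -1.52 without XW3.

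KRT10 had 531, 627 and 523 CPM in the SM ewes, against 793, 1600.1 and 1863 in the STH ewes. It was the only one of the 8 for which every STH ewe lay above every SM ewe, an order found for 13.3% of all genes tested. The SM ewes differed little from each other, while XW8 had more than XW3 by a wide margin. The means were 560.5 ± 57.8 (SD, n = 3) in SM against 1419 ± 558 (SD, n = 3) in STH ewes, a 2.53-fold difference. For KRT10 the log2 fold change came to -1.34 ± 0.29 (SE, adjusted p = 0.200), with a 95% interval from -2.0002 to -0.68, and it ranked 102 among the 15320 genes by p. As each sheep was left out the value lay between -1.63 and -1.09. Without SM ewe 128 KRT10 passed both thresholds, with a log2 fold change of -1.30 and an adjusted p of 0.0444, in a fit in which 199 genes passed as higher in SM and 964 as higher in STH ewes.

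KRT77 lies next to KRT1, with 8.90 kb between their annotated ends and 0 genes in between. It had 301, 358 and 408 CPM in the SM ewes, against 321, 685 and 812 in the STH ewes. As for KRT1, XW5 and XW8 stood above all SM ewes and XW3 lay among them. For KRT77 the log2 fold change came to -0.77 ± 0.31 (SE, adjusted p = 0.263), with a 95% interval from -1.47 to -0.06. It was -0.50 without XW8 and -1.07 without XW3.

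KRT2, a keratin of the upper spinous and granular layers, is the neighbour of KRT1 on the other side, at 23.6 kb and also with 0 genes in between. It had 4.83, 6.40 and 25.6 CPM in the SM ewes, against 9.66, 11.0 and 19.2 in the STH ewes. The highest and the lowest value of KRT2 were both in SM ewes. This gave a log2 fold change for KRT2 of -0.11 ± 0.58 (SE, adjusted p = 0.920), with an interval from -1.44 to 1.21 that includes differences as large as that of KRT1 in either direction. SM ewe 30126 decided this value, which was -1.23 (adjusted p = 0.335, edgeR) without it. Ewe 30126 stood apart in KRT2 but had the lowest KRT1 of all 6 sheep.

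KRT80 and KRT78, which are type II keratins of differentiating epithelium, did not have the direction of KRT1 and KRT10. KRT80 had 38.2, 44.0 and 43.8 CPM in the SM ewes, against 32.6, 27.2 and 35.9 in the STH ewes. Every SM ewe lay above every STH ewe for KRT80, an order found for 12.3% of all genes tested, and the gap between the breeds was small. This gave a log2 fold change for KRT80 of 0.40 ± 0.16 (SE, adjusted p = 0.260), with a 95% interval from 0.04 to 0.75. KRT78 had 9.82, 6.46 and 7.64 CPM in the SM ewes, against 8.17, 9.78 and 5.66 in the STH ewes. The breeds overlapped fully in KRT78, with a log2 fold change of 0.02 ± 0.27 (SE, adjusted p = 0.977) whose sign depended on the test and on the sheep included, and a 95% interval from -0.59 to 0.62.

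**Figure D2:**
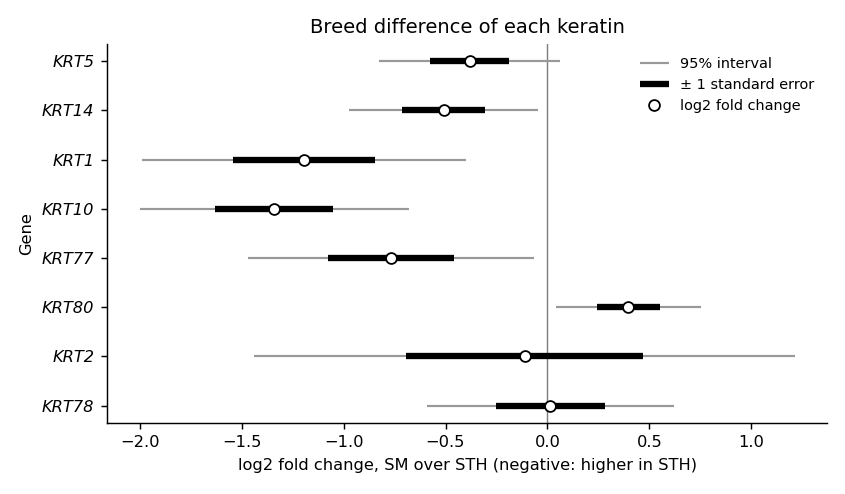
Log2 fold change of each keratin, SM over STH, from edgeR's quasi-likelihood fit (circles), with 1 standard error (thick bars) and the 95% interval (thin bars). KRT10, at -1.34, and KRT1, at -1.20, lie farthest to the STH side, and KRT80, at 0.40, lies to the SM side.

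Basal and suprabasal keratins were then compared within each sheep, as the log2 ratio of their counts, which needs no scaling between libraries. The summed counts of the 6 suprabasal keratins were 20.8%, 19.1% and 17.5% of the summed counts of KRT5 and KRT14 in the SM ewes. They were 21.0%, 32.2% and 36.3% in the STH ewes. Every STH ewe lay above every SM ewe in counts, but XW3 exceeded SM ewe 128 by a narrow margin only. Per exon length the order of these ewes was reversed, with suprabasal shares of the summed RPKM of 13.97% in XW3 and 14.01% in 128. On the log2 scale the mean ratio of counts was -2.39 ± 0.13 (SD, n = 3) in SM against -1.78 ± 0.42 (SD, n = 3) in STH ewes. This difference was -0.61 (SM minus STH), and -0.74 with KRT1 and KRT10 alone as the suprabasal keratins. With the mean of the log2 values, in which KRT2, KRT78 and KRT80 weigh as much as KRT1, it was -0.07. The median log2 fold change was -0.44 over the 6 suprabasal and -0.45 over the 2 basal keratins, against 0.02 over all genes tested.

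Then 4 single ratios were tested by an exact two-sided permutation test, which cannot give a p below 0.1 with 3 sheep against 3, and p values were adjusted over the 4. KRT10 over KRT14, the type I keratins, had a log2 ratio of -2.29, -2.51 and -2.69 in the SM ewes, and of -2.15, -1.59 and -1.496 in the STH ewes. Every STH ewe lay above every SM ewe in this ratio (exact permutation p = 0.1, adjusted p = 0.2), with a difference of -0.75. KRT1 over KRT5, the type II keratins, had -2.89, -2.95 and -3.34 in the SM ewes, and -2.91, -2.24 and -1.92 in the STH ewes. XW3 lay between the SM ewes here (exact permutation p = 0.2, adjusted p = 0.267), and the difference was -0.70.

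For the partners within a layer the differences in log2 ratio were 0.18 (KRT1 over KRT10) and 0.13 (KRT5 over KRT14). The former was 0.30 without XW8 and 0.12 without XW5. KRT1 over KRT10 had a mean log2 ratio of 0.20 ± 0.11 (SD, n = 3) in SM against 0.02 ± 0.21 (SD, n = 3) in STH ewes, and the breeds overlapped (exact permutation p = 0.3, adjusted p = 0.3). KRT5 over KRT14 had 0.76 ± 0.07 (SD, n = 3) and 0.63 ± 0.07 (SD, n = 3), with every SM ewe above every STH ewe (exact permutation p = 0.1, adjusted p = 0.2). That their differences are smaller than that of KRT10 over KRT14 was not tested. KRT5, KRT14 and several other keratins have close relatives in the genome, and the effect of reads shared between such genes on their counts was not tested.

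**Figure D3:**
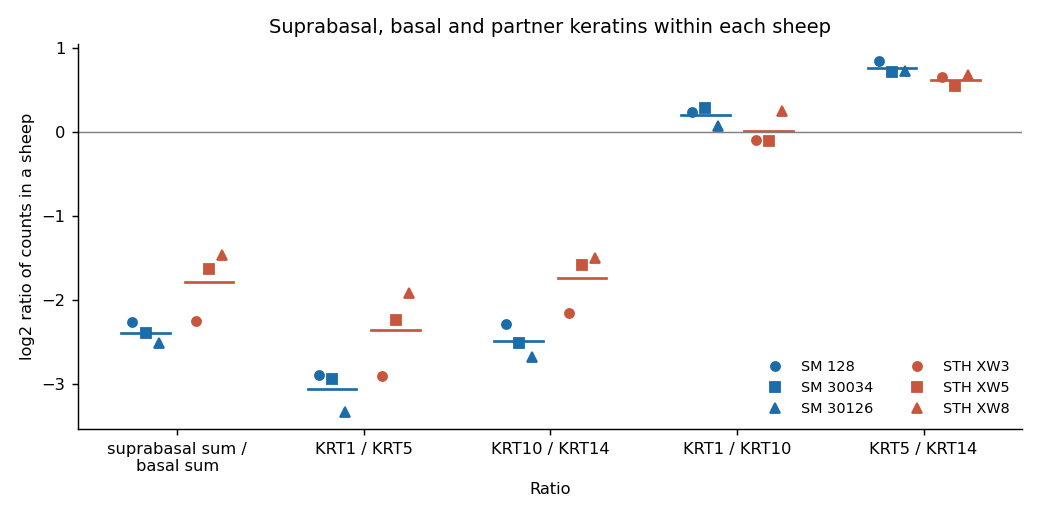
Log2 ratio of counts within each sheep (vertical axis) for the suprabasal over the basal sum and for 4 single ratios, with SM ewes in blue, STH ewes in red and the breed mean as a bar. In the ratio of KRT10 to KRT14 the SM ewes lie at -2.29 or lower and the STH ewes at -2.15 or higher, whereas the partner ratios differ less between the breeds.

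Other keratinocyte genes were set beside the keratins, from lists by layer. Of 23 suprabasal and cornifying genes other than keratins, 19 were tested, and 8 of the 19 were higher in STH ewes at an unadjusted p under 0.05 (10.8% of all genes were), 0 in SM ewes. Their median log2 fold change was -0.44, which became -0.16 without XW8 and -0.69 without XW3. RPTN, the cornified layer protein repetin, averaged 15.6 CPM in SM and 166 in STH ewes, at a log2 fold change of -3.41 ± 0.33 (SE, adjusted p = 0.0606). IVL, which encodes the envelope protein involucrin, had -1.05 ± 0.20 (SE, adjusted p = 0.159), and CNFN, which encodes cornifelin, -1.24 ± 0.29 (SE, adjusted p = 0.216). DSG1 and DSC1, the desmosomal cadherins of the suprabasal layers, had -0.71 and -0.89. Near 0 stood the envelope precursors EVPL and PPL, at -0.08 and -0.10, KRTDAP, at 0.07, and the crosslinking enzyme TGM1, at 0.19. The study had picked several of these genes from the same libraries. In DESeq2 as in the likelihood ratio test 5 of the 19 passed both thresholds, namely CNFN, DSC1, IVL, RPTN and SCEL. These tests passed 1.87% and 1.43% of all genes as higher in STH ewes.

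The basal genes other than keratins had a median near 0. Of the 12 listed 11 were tested, and their median was -0.03 on the log2 scale, or 0.16 once a trend on exon length was removed from each library. At an unadjusted p under 0.05, 1 of the 11 was higher in SM ewes (7.21% of all genes were) and 0 in STH ewes (10.8% of all genes were). This was the integrin subunit gene ITGA3, with 0.47 ± 0.14 (SE, adjusted p = 0.247). LAMA3, a laminin subunit of the basement membrane, had -0.29 and ITGA6 had -0.43. TP63, the master regulator of stratified epithelium, had 456 CPM in SM and 489 in STH ewes, and COL17A1, the hemidesmosome collagen of basal cells, 584 and 588. Their log2 fold changes were -0.10 for TP63 and -0.01 for COL17A1.

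Among 23 tested transcription factors of epidermal differentiation the median log2 fold change was 0.13, or 0.22 with the length trend removed. At an unadjusted p under 0.05, 3 of the 23 were higher in SM ewes (7.21% of all genes were) and 0 in STH ewes (10.8% of all genes were). CEBPB had 0.59 ± 0.14 (SE, adjusted p = 0.215), CEBPA 0.57 ± 0.17 (SE, adjusted p = 0.246) and BCL11B 0.44 ± 0.19 (SE, adjusted p = 0.273). CEBPA and CEBPB are C/EBP factors that act as basal cells turn to KRT1 and KRT10. Both thresholds were passed by 1 of the 23, CEBPB, in DESeq2 and in the likelihood ratio test. It was higher in SM ewes, as 1.02% and 0.868% of all genes were in these tests. Of 11 tested desmosome genes, which anchor keratin filaments to the cell border, 2 were higher in STH ewes at an unadjusted p under 0.05 (10.8% of all genes were), DSG3 with -0.69 ± 0.25 (SE, adjusted p = 0.254) and DSC2 with -0.53 ± 0.21 (SE, adjusted p = 0.260). DSG2 had -0.42 and the median of the desmosome list was -0.29, or -0.13 with the length trend removed.

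Keratins of the follicle and of other epithelia varied in direction. Of 18 wool fibre keratins listed, only 8 were found by symbol, and the values cover these alone. Their median log2 fold change was 0.49 (0.15 without SM ewe 30126), with KRT36 at 0.80, KRT84 at 0.67 and KRT35 at 0.72. Of 8 inner root sheath keratins listed, 6 were found by symbol. Their median was -0.19 (-0.07 without SM ewe 128), with KRT27 at -0.52, KRT71 at -0.36 and KRT74 at -0.21. Among 11 tested keratins listed for the outer root sheath, ducts and simple epithelia the median was 0.09. The sign of this value changed as ewes were left out (-0.16 to 0.33, the lowest without SM ewe 30126). Of the 20 listed for this class 12 were found by symbol, and KRT6A was not among them. LOC101112304, which the RefSeq gene table names KRT6A, had -0.77 and is outside the list. Also outside it is LOC101111178, described by the study as keratin 6A-like, which had -1.36. In that list KRT79 had 0.98 ± 0.18 (SE, adjusted p = 0.159), KRT8 had 0.37 and KRT9, at 1.32 CPM or less, -0.90. The list also holds keratins of other epithelia, KRT9 among them, and its median weighs low genes as much as high ones. In DESeq2 and in the likelihood ratio test KRT79 passed both thresholds, as higher in SM ewes (1.02% and 0.868% of all genes were), and it was the only gene of these 3 lists to pass in either. With the quasi-likelihood test 0% of all genes passed.

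**Figure D4:**
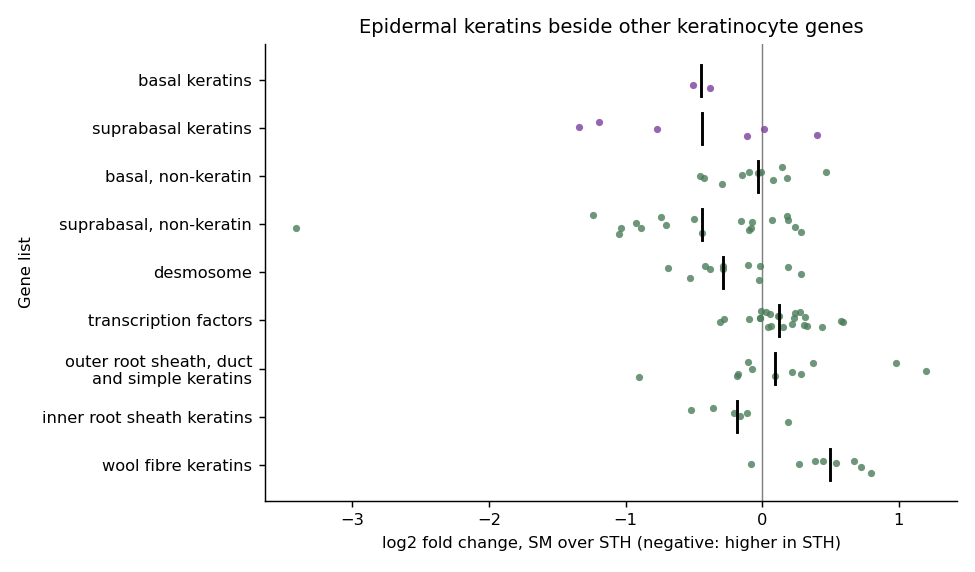
Log2 fold change, SM over STH, of each keratin (purple) and of the tested genes of 7 other lists (green), with the median of each list as a black bar. The suprabasal keratins spread from -1.34 to 0.40, and the suprabasal genes other than keratins have a median of -0.44 against -0.03 for the basal genes other than keratins.

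The genes whose levels followed those of KRT10 and KRT14 most closely over the 6 sheep were found by the Pearson correlation of log2 CPM among 5950 genes with a mean of at least 32 CPM, as a description. For KRT10 these were LOC101120969 (r = 0.994), TGM7 (0.989), FBXO32 (0.983), LOC101111178 (0.979) and LOC101112304 (0.977), and 53 genes had an r over 0.9. The RefSeq gene table names LOC101112304 KRT6A, a type II keratin of the outer root sheath and of activated epidermis. For KRT14 they were LOC101112304 again (r = 0.985), CITED2 (0.984), LRRC1 (0.972), LOC101111178 (0.968) and KRT27 (0.966), with 27 genes over 0.9. All of the points come from the same 6 libraries, so that the breed difference and the spread within the breeds both enter these values.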

How the data were processed

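Libraries of polyA RNA from skin (3 SM and 3 STH ewes, 1 library each) were read from both ends. Alignment to Oar_v4.0 was done by the authors with CLC Genomics Workbench. The deposited total count of a gene is a whole number without normalization. Per the study's supplement, counted fragments include those mapped uniquely to exons, exon junctions, introns or intergenic sequence and those mapped non-specifically. How the latter were assigned to genes, and which classes enter the total count of a gene, is not given in the sources used here. The RPKM deposited by the authors is scaled to exon length and to the mapped fragments, and was used for levels between genes. The deposited TPM, and a score that the authors call CPM and that sums to a different total in each sheep, were not used.

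Genes reaching 10 counts in 3 or more sheep were tested with edgeR 4.0.16 in R 4.3.3 (TMM, estimateDisp, glmQLFit, glmQLFTest), with breed as the only term and Benjamini-Hochberg adjustment. Calls needed both an adjusted p under 0.05 and a change of over 1.5-fold (0.585 on the log2 scale). Adjusted p values are from this test unless another is named. Standard errors are the fold change divided by the root of the F statistic. CPM values are TMM-normalized. At these depths 3 counts are 0.0664 to 0.0993 CPM, for counting error only. Replicates are separate sheep, and pairs of sheep of 1 breed differed by more than counting error (chi-square per degree of freedom 50.2 or more). The lowest value of all pairs, 41.9, was between the breeds, for SM ewe 128 and STH ewe XW3. Gene IDs matched the RefSeq gene table of ARS-UI_Ramb_v3.0 for 21630 of 28394 genes. Its names only were used, with the chromosome number of each sequence.

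The keratins, gene lists and tests were chosen with earlier results of these data known. All 8 keratins are named, and from each other list of keratinocyte genes or keratins the 3 tested genes with the smallest unadjusted p, besides the 5 genes most correlated with KRT10 and with KRT14. DSG1, DSC1, SCEL, EVPL, PPL, KRTDAP, TGM1, TP63, COL17A1 and FABP4 were named after their values were seen. Alternatives were DESeq2 1.42.0, the edgeR likelihood ratio and exact tests, limma-voom (limma 3.58.1), the newer dispersion estimate, RLE and upper quartile scaling, other filters, a loess (span 0.5) of each library on exon length, with the trend subtracted, limma on log2(RPKM + 0.1), and each sheep left out. On simulated counts with 200 changed genes among 15173, the quasi-likelihood test recovered 147 with 12 false calls, the likelihood ratio test 171 with 33, and DESeq2 169 with 39. In the sheep themselves the quasi-likelihood test passed 0 genes, and whether the simulated recovery and false calls hold for them was not tested.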

Additional observations from a re-analysis of the deposited data

How the results depend on the processing

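Among all genes, DESeq2 gave 156 genes past both thresholds as higher in SM and 287 as higher in STH sheep, the likelihood ratio test 133 and 219, and the exact test 128 and 201. Without a count filter there was 1 gene in each direction, and limma on log2(RPKM + 0.1) gave 2 and 9. The newer dispersion estimate and the removal of the length trend each gave 2 genes, both higher in STH sheep. As sheep were left out in turn the counts ranged from 0 to 199 (higher in SM) and from 0 to 964 (higher in STH), the highest without SM sheep 128. The quasi-likelihood test gave 0 at 1104 (SM) and 1658 (STH) genes with an unadjusted p under 0.05, and with upper quartile scaling these were 1437 and 1402.

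KRT1 and KRT10 passed with DESeq2 (log2 fold change -1.20, adjusted p = 0.0218, and -1.34, adjusted p = 0.000825), the likelihood ratio test (-1.20, adjusted p = 0.0438, and -1.34, adjusted p = 0.00261) and with the exact test of edgeR (-1.20, adjusted p = 0.0475, and -1.34, adjusted p = 0.00283). Over all 17 alternatives the adjusted p of KRT1 lay between 0.0218 and 0.628 and that of KRT10 between 0.000825 and 0.552. As sheep were left out KRT1 lay between -1.52 and -0.78 and KRT10 between -1.63 and -1.09. KRT5, KRT14, KRT77 and KRT80 kept their direction and did not pass under any of the 17. KRT2 ranged from -1.23 to 0.27 over the left-out sheep, and was positive without 128 (0.27), 30034 (0.17) or XW8 (0.25). KRT78 turned negative with the newer dispersion estimate (-0.00076), limma-voom (-0.018) and the length trend removed (-0.015), and ranged from -0.17 to 0.20 over the left-out sheep.

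The suprabasal list had 5 genes past both thresholds with DESeq2, the likelihood ratio test and the exact test, 1 with the newer dispersion estimate, no filter, the length trend removed or RPKM, and 0 to 6 as sheep were left out. The transcription factors had 1 with DESeq2, the likelihood ratio test and the exact test, and 0 to 1 as sheep were left out. Of all genes, DESeq2, the likelihood ratio test and the exact test passed 1.87%, 1.43% and 1.31% as higher in STH sheep. As higher in SM sheep they passed 1.02%, 0.868% and 0.836%. With the length trend removed the medians were 0.16 for the basal list, -0.13 for the desmosome list and 0.22 for the transcription factors. As sheep were left out the medians ranged from -0.12 to 0.012, from -0.26 to -0.20 and from 0.07 to 0.16 for these lists, and from -0.69 to -0.16 for the suprabasal list. The suprabasal to basal difference was -0.068 with the mean of log2 values in place of the sum, and -0.84 (without XW3) to -0.45 (without XW8) as sheep were left out. KRT10 over KRT14 ranged from -0.96 to -0.63 and KRT1 over KRT5 from -0.98 to -0.48. The causes were not tested.

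No paired analysis was possible because the labels name individual sheep and give no number shared between the breeds. Counting error was at most 8.28% of a count (KRT2) and below the SD between sheep for each keratin.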
